A study of Mus musculus with 4 samples.

Results

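The sarcomere and calcium-handling genes of muscle were followed in spatial transcriptomes of embryonic mouse heads. Every gene of the deposited tables whose symbol belongs to the myosin heavy and light chain, troponin, tropomyosin, alpha-actinin, myosin binding protein C, myomesin, calsequestrin, sarcoplasmic calcium pump or myozenin families was taken, with Mylpf, Acta1 and Ckm added, which gave 53 of 19465 genes. The rule used the symbols only and no measured value. By the known use of each gene, 15 were fast fibre forms, 12 slow fibre forms, 6 cardiac forms, 6 shared by striated muscles, 2 developmental heavy chains and 9 non-muscle or smooth muscle forms. The remaining 3, Tnni3k, Myl10 and Tpm3-rs7, had 14, 8 and 40 UMIs in all. Myh13, Tpm3, Myl6, Myl12b, Actn4 and Tpm4 were not analysed here.

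The samples were coronal sections through wild-type C57BL/6J heads at E14.5 and E15.5, fixed in formalin, embedded in paraffin and placed on Visium slides, on which barcoded spots capture ligated probe pairs that stand for transcripts. No agent or allele separated the groups, so stage was the only contrast. Each stage had 2 capture areas, 1 with a single section (replicate 1) and 1 with 3 sections (replicates 2, 3 and 4), called the single-section and the 3-section area here. The study's methods describe the spatial experiments as biologically replicated, but which section carries which replicate number, and which sections share an embryo, was not given in the sources used here. Each area therefore counted as 1 sample, and the p-values measure the spread between areas only. Values for the 4 areas are given in the order E14.5 single-section, E14.5 3-section, E15.5 single-section and E15.5 3-section.

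The areas held 1106, 2310, 989 and 1952 spots over tissue, with medians of 6752, 45058.5, 64051 and 45471.5 UMIs (counted molecules) per spot. The E14.5 single-section area was thus the shallowest by spot and by total, with 15438992 UMIs against 67344393 to 109127953 in the others, and 1 of the sections of the E14.5 3-section area had a median of 10037.5 UMIs. A spot can hold several cells of different types. In summed spots, fewer cells of a type and less RNA per cell cannot be told apart. Levels are given in CPM, the UMIs of a gene scaled to a fixed total of the UMIs of the spots named. They were compared between places and samples for 1 gene at a time, since the number of probe pairs per gene was not given in the sources used here.

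A striated muscle cell contracts when myosin heavy chains, carried with their light chains in thick filaments, pull on actin filaments whose tropomyosin and troponins block or open the binding sites in response to calcium. Pumps of the Atp2a family return the calcium to the sarcoplasmic reticulum, where calsequestrins hold it. Most of these proteins exist as fast, slow, cardiac and developmental forms encoded by separate genes. Muscles of the embryo first use the embryonic chain Myh3, the perinatal chain Myh8 and the slow chain Myh7, with several forms that the adult keeps only in the heart, before the adult fast chains take over.

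The genes that carried the patterns described below lie in a few places of the mm10 genome. The heavy chain genes Myh3 (chr11:67078300-67102291), Myh2 (chr11:67171027-67197517), Myh1 (chr11:67200052-67224575), Myh4 (chr11:67238029-67260446) and Myh8 (chr11:67277124-67308634) stand in this order on the plus strand of chromosome 11. Myh6 (chr14:54941921-54966927) and Myh7 (chr14:54970684-54994626) are neighbours on the minus strand of chromosome 14. On chromosome 17 Myl12a (minus strand) and Myom1 (plus strand) overlap at their ends. The heavy chains of the cluster are close in sequence, and probe positions were not given in the sources used here, so whether a probe pair also captured a neighbour's transcript was not tested.

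Promoters are shown for 6 genes on which the results below turn. They are the fast light chain Mylpf, the heavy chains Myh3, Myh8 and Myh1 of the chromosome 11 cluster, the cardiac troponin Tnni3 and the non-muscle heavy chain Myh14. Each is the 250 bases before the annotated start in RefSeq on GRCm38.p6, read 5′ to 3′ on the strand of the gene, and the capitals mark its match to 1 motif. The motif is CAGCTG, an E-box of the kind bound by myogenic factors, in Mylpf, the general E-box CANNTG in Myh3, Tnni3 and Myh14, and the MEF2 box in Myh8 and Myh1.
Mylpf, chr7:127211358-127211607, plus strand: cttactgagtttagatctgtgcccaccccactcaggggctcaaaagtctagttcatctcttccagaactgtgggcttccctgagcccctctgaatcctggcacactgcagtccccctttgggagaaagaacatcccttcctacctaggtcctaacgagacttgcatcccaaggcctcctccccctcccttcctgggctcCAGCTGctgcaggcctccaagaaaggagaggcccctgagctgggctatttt
Myh3, chr11:67078050-67078299, plus strand: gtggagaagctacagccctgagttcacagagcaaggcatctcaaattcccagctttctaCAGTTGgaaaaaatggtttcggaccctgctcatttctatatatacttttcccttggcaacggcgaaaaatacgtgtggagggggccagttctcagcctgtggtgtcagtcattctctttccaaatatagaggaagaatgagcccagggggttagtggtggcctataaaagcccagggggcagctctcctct
Myh8, chr11:67276874-67277123, plus strand: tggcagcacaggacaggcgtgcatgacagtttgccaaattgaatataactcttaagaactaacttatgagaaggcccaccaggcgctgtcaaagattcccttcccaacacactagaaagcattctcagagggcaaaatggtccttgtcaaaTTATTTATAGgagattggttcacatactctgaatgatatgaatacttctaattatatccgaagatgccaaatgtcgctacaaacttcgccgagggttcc
Myh1, chr11:67199852-67200101, plus strand: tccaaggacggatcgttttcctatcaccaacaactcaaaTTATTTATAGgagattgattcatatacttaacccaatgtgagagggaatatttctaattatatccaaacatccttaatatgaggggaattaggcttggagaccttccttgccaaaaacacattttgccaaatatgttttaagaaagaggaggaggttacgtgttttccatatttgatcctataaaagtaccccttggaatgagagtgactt
Tnni3, chr7:4522529-4522778, minus strand: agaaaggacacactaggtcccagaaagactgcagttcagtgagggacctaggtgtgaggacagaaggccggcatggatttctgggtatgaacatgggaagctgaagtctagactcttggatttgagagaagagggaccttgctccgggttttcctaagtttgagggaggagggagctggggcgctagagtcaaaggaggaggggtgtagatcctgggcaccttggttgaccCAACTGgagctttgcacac
Myh14, chr7:44670844-44671093, minus strand: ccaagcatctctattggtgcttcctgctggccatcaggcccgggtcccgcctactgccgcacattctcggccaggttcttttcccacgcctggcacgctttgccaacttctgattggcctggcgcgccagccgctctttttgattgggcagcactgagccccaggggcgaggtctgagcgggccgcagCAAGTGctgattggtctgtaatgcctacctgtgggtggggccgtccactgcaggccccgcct

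RefSeq promoters were matched for 44 of the 53 genes, 34 of them striated muscle forms and 8 non-muscle or smooth muscle forms. CAGCTG, which reads the same on both strands, was present in 14 of the 34 striated promoters (41.2%), in 2 of the 8 non-muscle promoters (25.0%) and in 13.0% of all 32851 promoters of the table. The MEF2 box was present in 7 of 34 (20.6%), in 0 of 8 and in 2.92% of all promoters, and the CArG box in 5 of 34 (14.7%), in 1 of 8 (12.5%) and in 1.47% of all promoters. CANNTG, which includes every CAGCTG, stood in 31 of 34 (91.2%), in 6 of 8 (75.0%) and in 66.2% of all promoters, so its presence separates few genes. The members are counted by gene and these backgrounds by promoter. Counted over the 27025 genes of the table, the backgrounds were 14.7% for CAGCTG, 3.42% for the MEF2 box, 1.62% for the CArG box and 69.3% for CANNTG. The Myh1 and Myh8 promoters shared a run of 22 bases that held the MEF2 box, starting 216 bases before the start of Myh1 and 104 bases before that of Myh8. These matches describe letters in a window and no binding.

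Muscle was first placed in the sections without the 53 genes themselves. Spots were called muscle-rich from the summed level of 12 other skeletal muscle genes, among them Neb of the thin filament, the calcium release channel Ryr1, acetylcholine receptor subunits and the myogenic factors Myog and Myod1, with a cut of 328 CPM set by Otsu's method. This gave 283, 669, 395 and 838 muscle-rich spots, or 25.6, 29.0, 39.9 and 42.9% of the spots of the areas. The 53 genes together held 0.495, 0.963, 1.11 and 1.27% of all UMIs. They made up 17960, 22759, 24151 and 22049 CPM of the muscle-rich spots and 2685, 2885, 2353 and 4218 CPM of the other spots, so that 53.8, 80.2, 87.3 and 82.6% of their UMIs lay in muscle-rich spots. The comparison of muscle-rich with other spots is within sections and has no replicate beyond the 4 areas, so it is given as a description without a test.

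The forms of striated muscle lay almost all on the same side. Of the 19157 genes with a UMI, 23.9% were higher in muscle-rich than in other spots in all 4 areas, 29.5% were lower in all 4, and 1.04% were over 4-fold higher in all 4. Among the members, 15 of 15 fast forms, 12 of 12 slow forms, 6 of 6 shared forms, both developmental heavy chains and 5 of 6 cardiac forms were higher in all 4 areas. The count over 4-fold in all 4 areas was 11 fast, 10 slow, 5 shared, 4 cardiac and both developmental genes. Of the 9 non-muscle and smooth muscle forms, 7 were higher in all 4 areas, none over 4-fold, and Myh10 and Myh14 were lower in all 4.

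**Figure D1:**
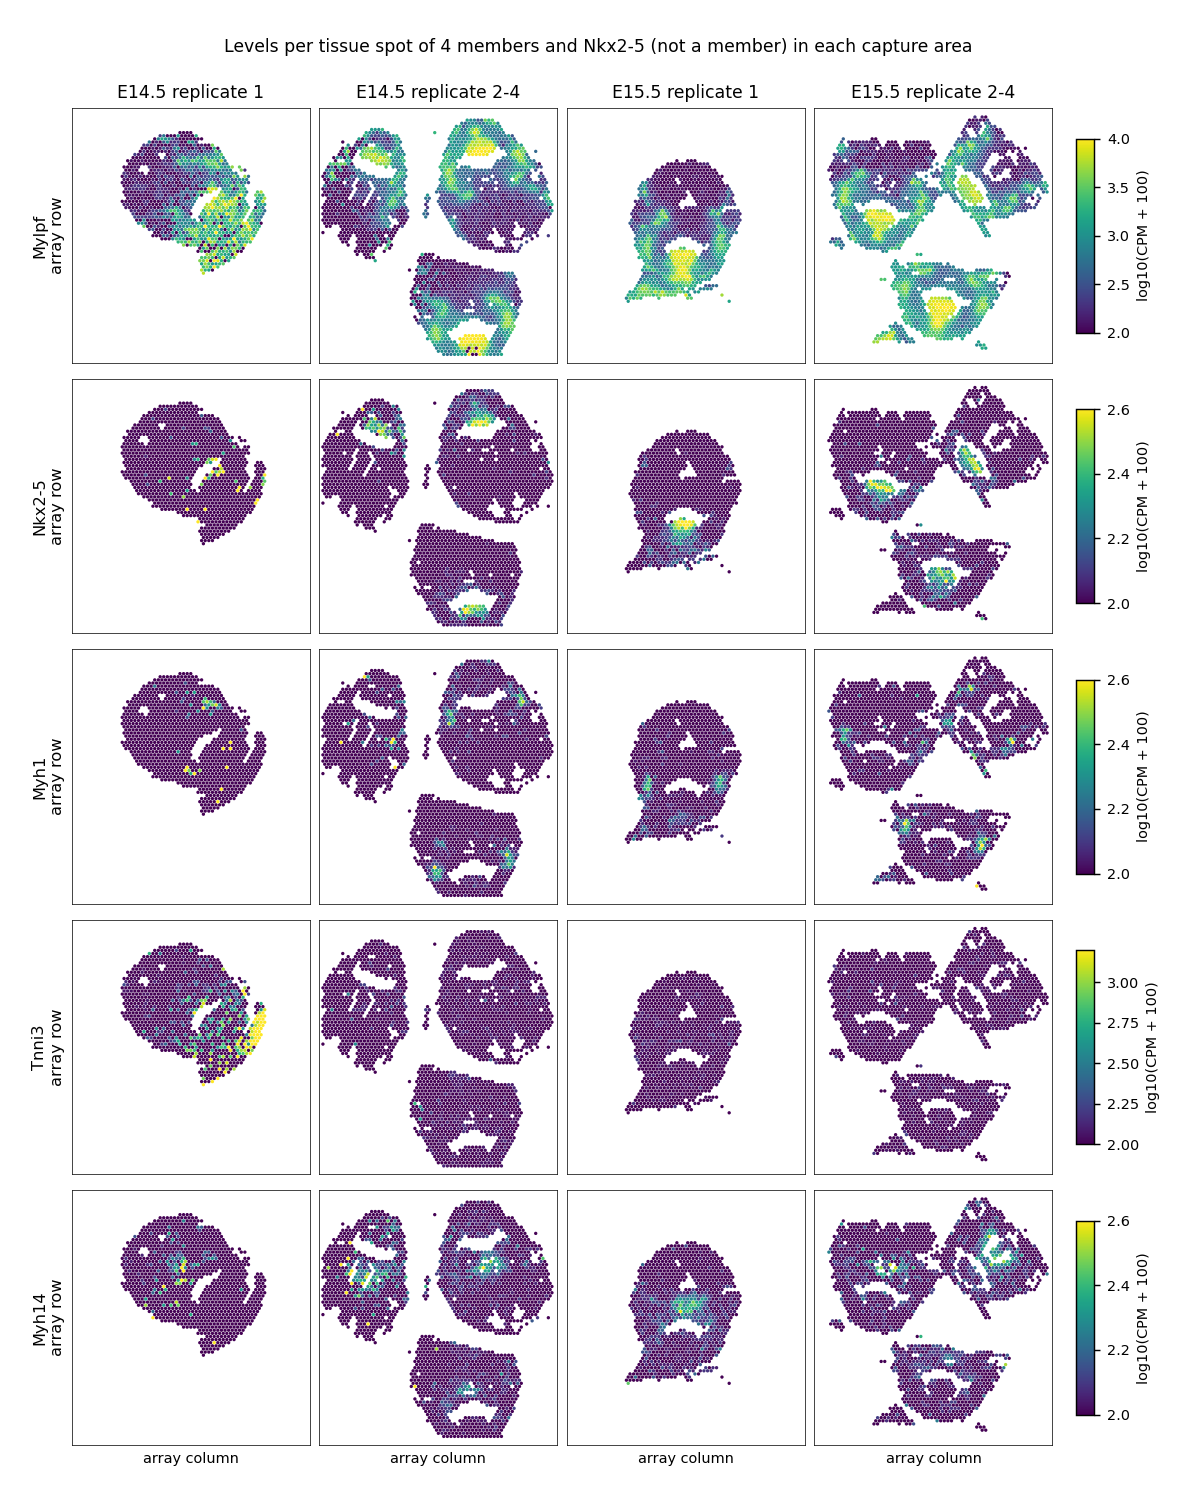
Spot maps of Mylpf, Nkx2-5, Myh1, Tnni3 and Myh14 (rows, top to bottom) in the 4 capture areas (columns), drawn by array column and array row. Colour is log10 of CPM plus 100 in each spot. Mylpf fills the muscle patches of every area, Myh1 stands out in other patches than the one with Nkx2-5, and Tnni3 is concentrated at the right end of the E14.5 single-section area, where 51.0% of its UMIs in that area lay.

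Among the fast forms, Mylpf, the regulatory light chain of fast fibres, reached 2005, 2898, 2975 and 3031 CPM in muscle-rich spots and 131, 176, 101 and 325 CPM in the others, or 15.3, 16.5, 29.4 and 9.32 times as much. Tnnc2, the calcium-binding troponin of fast fibres, stood at 1141, 1286, 1430 and 1215 CPM against 81.1, 80.5, 51.0 and 130 CPM. Myl1, an essential light chain of fast fibres, stood at 843, 786, 1141 and 876 CPM against 68.0, 59.1, 45.0 and 96.5 CPM. These 3 genes of the fast programme were present at high levels in each area at both stages. The adult fast heavy chains were likewise higher in muscle-rich spots in all 4 areas. Myh1, the IIx chain, had 23.2, 18.9, 17.2 and 18.4 CPM in muscle-rich spots, Myh4, the IIb chain, 1.75, 1.40, 1.33 and 0.872 CPM, and Myh2, the IIa chain, 0.437, 0.783, 0.853 and 0.684 CPM. Myh2 had 138 and Myh4 175 UMIs over the 4 areas, so their ratios to the other spots rest on few molecules.

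The developmental chains were carried by muscle in the same way. Myh3, the embryonic heavy chain, stood at 1951, 3477, 2928 and 2898 CPM in muscle-rich spots against 139, 238, 124 and 349 CPM elsewhere. Myh8, the perinatal heavy chain, stood at 675, 1073, 1403 and 1182 CPM against 47.1, 64.3, 40.5 and 124 CPM. In each area both chains stood at 8.30 times the level of the other spots or more.

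Of the slow forms, Tnni1, the inhibitory troponin of slow fibres, stood at 931, 1147, 1275 and 920 CPM in muscle-rich spots against 78.4, 83.9, 62.6 and 108 CPM. Tnnc1, the troponin C of slow and cardiac muscle, stood at 274, 396, 299 and 388 CPM against 24.6, 29.5, 13.5 and 49.4 CPM. Atp2a2, the slow and cardiac calcium pump that non-muscle cells also use, went against this pattern, with 480, 504, 412 and 426 CPM against 357, 464, 321 and 335 CPM, a ratio of only 1.09 to 1.34. Its fast counterpart Atp2a1 had 323, 315, 431 and 334 CPM in muscle-rich and 21.7, 21.8, 19.6 and 34.8 CPM in other spots. Myh7, the slow and cardiac ventricular heavy chain, had 449, 275, 270 and 209 CPM against 72.6, 26.3, 15.7 and 34.2 CPM.

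The shared genes Acta1, Tpm2 and Tpm1 were each higher in muscle-rich spots. Acta1, skeletal alpha-actin, stood at 1438, 1851, 2336 and 1925 CPM against 119, 135, 87.8 and 224 CPM, and Tpm2, beta-tropomyosin, at 960, 1455, 1455 and 1250 CPM against 116, 185, 130 and 254 CPM. Tpm1, a tropomyosin gene that many cell types use, was the shared gene with the smallest ratios, 3.39, 1.98, 2.25 and 1.39, with 1118, 448, 696 and 727 CPM against 330, 226, 310 and 522 CPM.

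The cardiac forms split into a group that behaved like the skeletal genes and a group at low levels. Myl4, the essential light chain of the atrium and of embryonic skeletal muscle, stood at 1479, 2729, 2366 and 2169 CPM in muscle-rich spots against 115, 191, 105 and 237 CPM. Tnnt2, the troponin T of heart and of developing skeletal muscle, stood at 468, 656, 588 and 515 CPM against 52.2, 43.5, 28.4 and 57.4 CPM. Myh6, the atrial heavy chain, was low at 27.5, 22.3, 24.7 and 16.4 CPM, yet 7.39 to 22.7 times higher than in other spots. Tnni3, the inhibitory troponin of the heart, was different, with 104, 5.34, 4.49 and 4.08 CPM in muscle-rich and 28.8, 5.36, 4.14 and 3.68 CPM in other spots. The light chain Myl2 of ventricle and slow fibres, counted among the slow forms, had 45.0, 4.02, 4.75 and 6.65 CPM in muscle-rich spots, the atrial light chain Myl7 6.56, 0.675, 0.964 and 1.67 CPM, and Mybpc3, cardiac myosin binding protein C, 19.2, 0.648, 2.002 and 0.919 CPM. All 4 of these genes were highest in the E14.5 single-section area, and stood at or below 6.65 CPM in the other 3 areas.

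**Figure D2:**
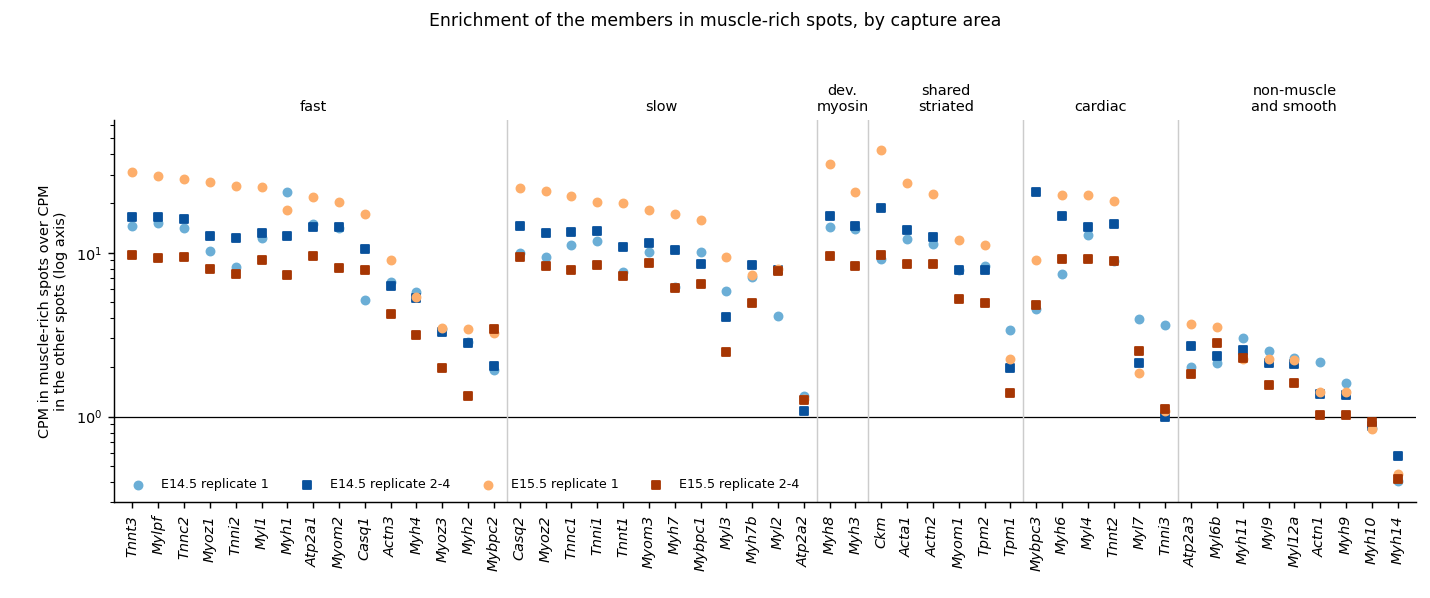
Ratio of the level in muscle-rich spots to that in other spots (log axis) for the member genes, grouped by form, with 1 point per capture area. Most striated forms sit well above 1 in every area, while Atp2a2 lies between 1.09 and 1.34, Myh10 between 0.842 and 0.9299 and Myh14 between 0.404 and 0.576.

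The non-muscle forms were then followed into the other tissues. Each spot was assigned to the marker list with the highest level relative to its cut, which gave neural, epithelial, cartilage, bone and muscle spots; this rule was set after the data had been seen. Myh14, a non-muscle heavy chain (type IIC), was highest in cartilage spots in 4 of 4 areas, at 33.5 to 43.7 CPM, against 14.9 to 21.3 CPM in epithelial, 7.33 to 14.1 in bone, 3.90 to 9.08 in neural and 2.15 to 7.28 CPM in muscle spots. The range of the cartilage spots did not overlap that of any other class.

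Myh10, the non-muscle heavy chain IIB, was highest in neural spots in 4 of 4 areas, at 280 to 308 CPM, with 210 to 296 CPM in the other classes. Myh9, the non-muscle heavy chain IIA, was highest in epithelial spots in 4 of 4 areas, at 157 to 217 CPM, and lowest in neural spots, at 50.6 to 71.7 CPM. Myl12a, a regulatory light chain of non-muscle myosin, was highest in muscle spots in 4 of 4 areas, at 350 to 518 CPM, and reached only 82.4 to 122 CPM in neural spots. Actn1, a non-muscle alpha-actinin, had 46.1 to 72.1 CPM in neural spots and 115 to 223 CPM in the other classes. The 3 non-muscle heavy chains thus peaked in 3 different classes of spots, and the classes differ in the mix of cells they hold.

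Which form of each family the muscle used was described by shares. Within the muscle-rich spots of each of the 8 sections, 4 at each stage, the UMIs of 1 gene were divided by those of its family. Unequal probe numbers shift such shares, so that a share is compared only with the same share elsewhere. Of 37 shares, 34 overlapped between the stages, 2 were higher in every E15.5 section and 1 was lower. Sections of 1 area share a library and shares of 1 family depend on each other, so no test was made. How many of the 37 shares would separate without any stage difference was not estimated.

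Myh8 was the heavy chain whose share separated the stages. It made up 21.4, 20.2, 22.6 and 21.5% of heavy chain UMIs in the E14.5 sections and 30.0, 26.3, 23.1 and 29.6% in the E15.5 sections. The margin between the highest E14.5 and the lowest E15.5 section, 22.6 and 23.1%, was narrow beside the spread within E15.5. Myh3 made up 61.8 to 71.8% at E14.5 and 62.8 to 70.5% at E15.5. Myh7 held 14.2% in the E14.5 single section (95% Wilson interval 13.4 to 15.04%, which covers counting error only) and 4.47 to 6.45% in the other 7 sections. Myh1, Myh2 and Myh4 each stayed under 1% in all sections, with highest shares of 0.734, 0.0188 and 0.0554%.

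A pair of troponin shares also did not overlap. Tnni2, the inhibitory troponin of fast fibres, made up 3.31, 2.72, 2.56 and 1.51% of the troponin I UMIs at E14.5 and 4.35, 5.07, 5.10 and 4.06% at E15.5. Tnnt2, the cardiac and embryonic form, made up 43.7, 44.1, 40.0 and 41.2% of the troponin T UMIs at E14.5 and 37.6, 34.7, 38.4 and 31.5% at E15.5. Every E15.5 section was above every E14.5 section for Tnni2 and below for Tnnt2. The share of the fast form Tnnt3 was 41.3 to 52.7% in the earlier and 51.7 to 59.1% in the later sections, an overlap of 1 section with 1 section. Tnni1, the slow form, held 86.9 to 98.0% and 94.4 to 95.5%.

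Shares of the calcium-handling families overlapped. The fast pump Atp2a1 had 36.3 to 41.6% of the pump UMIs at E14.5 and 40.0 to 51.1% at E15.5, and Casq2, the cardiac and slow calsequestrin, 48.8 to 83.6% and 61.9 to 78.3% of the calsequestrin UMIs. Mylpf held 97.5 to 99.9% of the sarcomeric regulatory light chains, Myl4 62.9 to 79.9% of the essential light chains and Actn2, the alpha-actinin of all striated fibres, 85.9 to 94.1% of the sarcomeric alpha-actinins over both stages.

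**Figure D3:**
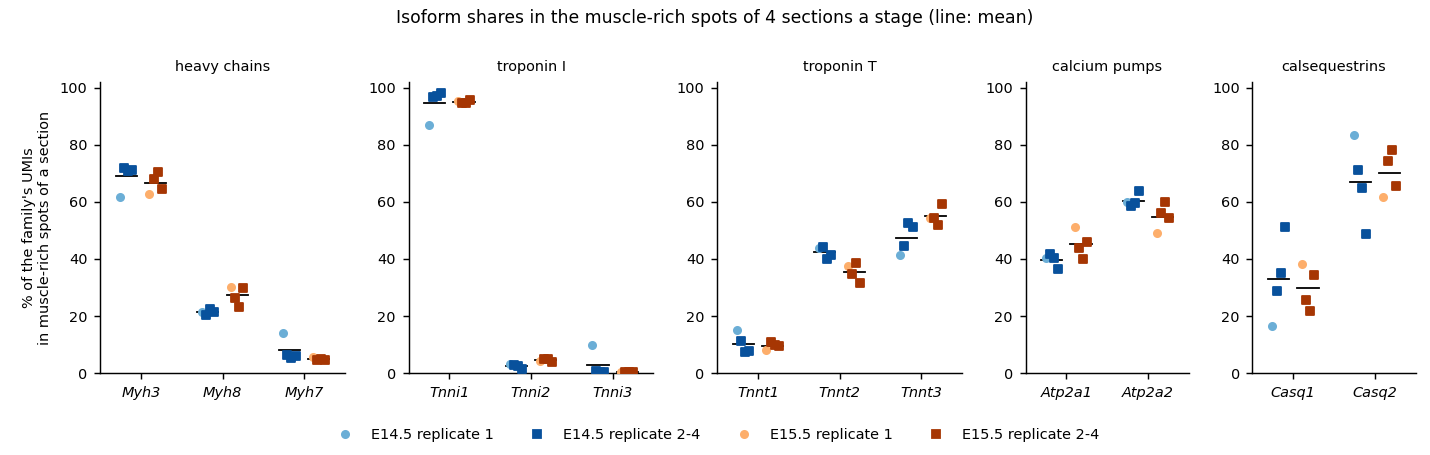
Share (%) of each form in the UMIs of its family within muscle-rich spots, with 1 point for each of the 4 sections of a stage and a line at their mean. Myh8 and Tnni2 lie higher and Tnnt2 lower in all E15.5 sections, and 1 E14.5 section stands apart in Myh7 (14.2%), Tnni1 (86.9%) and Tnni3 (9.76%).

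The shares also differed with the muscle content of the spot. Muscle-rich spots were ranked within each area by the 12 list genes and cut into 3 equal parts. Atp2a1 went from 27.9, 19.5, 29.5 and 24.3% of the pump UMIs in the lowest part to 52.3, 48.1, 59.4 and 53.2% in the highest part, a gain of 24.4 to 29.8 percentage points. The shares of Myh8 and Tnnt3 were higher in the highest part in 4 of 4 areas, by 3.36 to 9.25 and by 4.18 to 9.08 points. The shares of Myh7 and Tnnt2 were lower there in 4 of 4 areas, with differences of -4.16 to -2.58 and of -8.43 to -0.874 points. That of Tnni2 was higher there in 1 of 4 areas, with differences of -0.874 to 0.191 points. The shares of Myh8 and Tnnt2 thus moved with muscle content in the direction in which they moved with stage, and those of Tnni2 did not. The part of muscle content in the stage separation of these shares was not tested. Atp2a2 is also present outside muscle, and the part of non-muscle cells in the lowest part was not tested.

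Muscle patches within a section differed in the forms they used. Spots at 2.5 times the muscle cut or more were joined to patches of at least 15 neighbouring spots, and in each section the patch with the highest level of Nkx2-5, a homeobox factor of the heart and the pharyngeal mesoderm, was set against the others. The patches and the split were chosen after the data had been seen. In all 8 sections 1 such patch was found (38 to 141 spots), with 14 other patches (17 to 40 spots) in 7 of them; 1 section of the E14.5 3-section area had no other patch. A further 2 patches were left out, 1 of 23 spots beside a patch of cardiac genes at the end of the E14.5 single section, described below, and 1 of 15 spots that lay in no section of the E15.5 3-section area. They had 0 UMIs of Nkx2-5 but 1061 and 1030 CPM of Ckm, 1752 and 713 CPM of Myh7, and 0 and 29.5 CPM of Myh1. Nkx2-5, which made the split, stood at 57.3 to 139 CPM against 3.28 to 20.6 CPM. Tbx1, a T-box factor of head muscle that the split did not use, stood at 105 to 227 CPM against 19.7 to 63.3 CPM. Ratios are given per section as a description.

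Over 10914 genes with at least 300 UMIs in both kinds together, 6.5% were higher and 11.7% lower in the Nkx2-5-high patch in all 7 sections. Of the 41 members at that depth, 25 were higher in all 7 and 3 were lower in all 7. The 12 skeletal muscle genes that define the patches were also higher in 7 of 7 sections in sum, with a median ratio of 1.28, a measure of the difference in muscle content. The summed epithelial list was higher in 7 of 7 sections with a median ratio of 1.81, Krt15 leading with 2.41, and the bone list in 7 of 7 with 1.498. The part of these neighbours in the contrast was not tested.

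The 3 lower members were heavy chains. Myh1 had 14.3 CPM in the Nkx2-5-high patch and 87.4 CPM in the other patches of the E14.5 single section, and 4.66 against 51.7 and 6.48 against 64.8 CPM in the E14.5 sections of the 3-section area. In the E15.5 sections it had 9.96 against 65.3, 3.74 against 47.6, 4.28 against 35.9 and 3.13 against 73.9 CPM. The highest of the 7 levels in the Nkx2-5-high patches thus lay below the lowest of the 7 summed levels in the other patches. The median ratio was 0.0999, with a range of 0.0424 to 0.164 over 195 and 1229 UMIs.

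Myh7b, a slow-type heavy chain, had a median of 8.56 CPM (0 to 13.5) in the Nkx2-5-high patches and 32.8 CPM (11.1 to 65.7) in the others, with a median ratio of 0.177. Myh7 had 289 CPM (193 to 380) against 395 CPM (216 to 513), a median ratio of 0.793 with a range of 0.577 to 0.893. Myh7 and Myh7b were lower in each of the 7 sections, although their ranges over sections overlapped between the kinds.

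The largest ratios in the other direction were those of Ckm, muscle creatine kinase, which had a median of 682 CPM (389 to 1113) against 124 CPM (51.7 to 184), with a median ratio of 7.52 and a range of 3.70 to 8.86. Counting the 23-spot patch among the others of its section, an alternative added after the data were seen, lowered this median to 4.48, and Ckm was still higher in 7 of 7 sections. Casq1, the fast calsequestrin, had 224 CPM (119 to 329) against 52.7 CPM (37.1 to 67.4), a ratio of 4.25. The atrial chain Myh6 had 47.0 CPM (36.8 to 67.6) against 12.4 CPM (3.17 to 21.8), a ratio of 3.99. None of these 3 genes overlapped between the kinds, which do not include the 2 patches left out. Those 2 patches, with 0 UMIs of Nkx2-5, had Ckm levels inside the range of the Nkx2-5-high patches. Casq1 had 80.3 CPM in the 23-spot patch and 172 CPM in the 15-spot patch, the second inside that range. Myh6 had 32.1 and 7.37 CPM there, below the range of the Nkx2-5-high patches.

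Atp2a3, a calcium pump of non-muscle cells, had a median ratio of 3.44 on 476 and 96 UMIs. The fast genes Tnnt3, Tnni2, Mylpf and Tnnc2 had median ratios of 2.76, 2.43, 2.39 and 2.37, Casq2 2.46, Myl4 2.28, Acta1 2.21 and Myh8 2.096, and each was higher in 7 of 7 sections. Myh3 was higher in 6 of 7 sections with a ratio of 1.78. Of the 11 fast members at that depth, 9 were higher in 7 of 7 sections, 1 was lower (Myh1) and 1 was mixed (Actn3). Of the 11 slow members, 5 were higher in 7 of 7 sections, among them Tnnt1 (1.47) and Myoz2 (1.79), 2 were lower (Myh7 and Myh7b) and 4 were mixed, among them Tnnc1 (0.960, higher in 2 of 7 sections) and Mybpc1, the slow myosin binding protein C (0.873, higher in 3 of 7). Of the 8 non-muscle and smooth muscle members, 2 were higher in 7 of 7 sections and 6 were mixed. Myog, the differentiation factor, was nearly equal between the kinds at a median ratio of 1.06, and Myf5, a factor of muscle precursors, was lower in 6 of 7 sections at 0.629.

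Myh1 and Myh8, both in the chromosome 11 cluster and with promoters that share the MEF2 box run shown above, lay on opposite sides of this contrast. The 8 cardiomyocyte list genes, which include Nkx2-5, summed to 111 to 149 CPM in the Nkx2-5-high and to 15.8 to 47.0 CPM in the other patches, while the medians of Nppa, Gata4 and Tbx20 over the 7 sections were at most 0.357 and 1.20 CPM in the 2 kinds. In the E14.5 single section Nppa had 23.9 against 4.37 CPM, Tbx20 19.1 against 4.37 CPM and Gata4 9.55 against 0 CPM, on 5, 4 and 2 UMIs in the Nkx2-5-high patch.

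**Figure D4:**
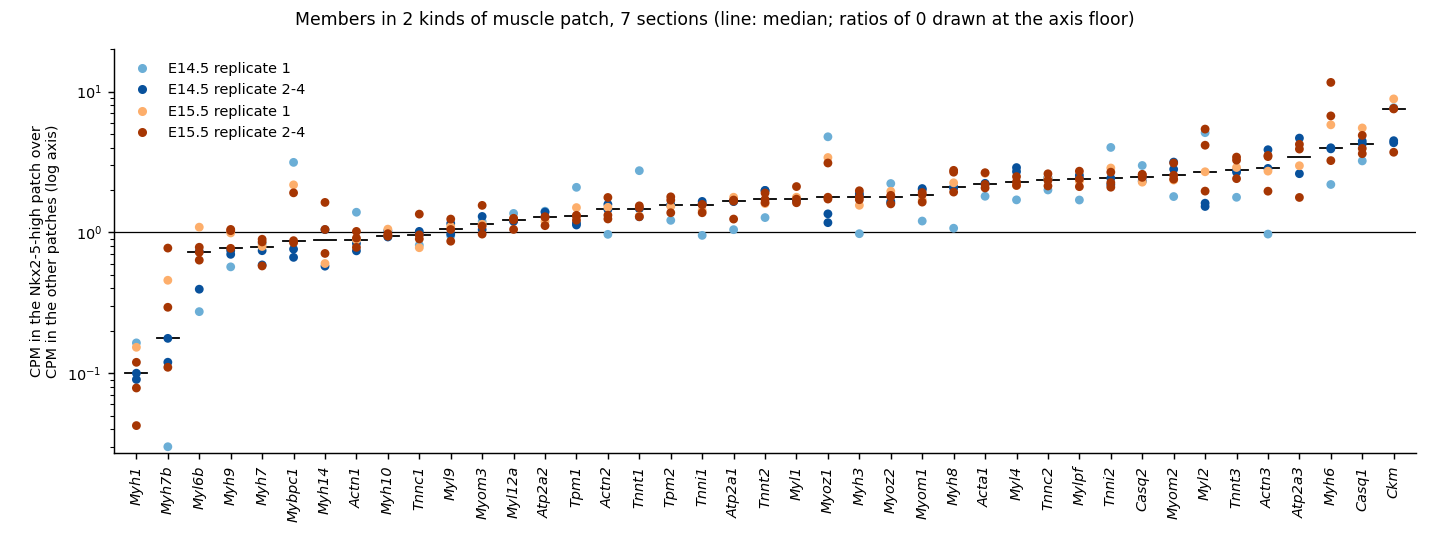
Ratio of the level in the Nkx2-5-high patch to that in the other muscle patches (log axis) for members with at least 300 UMIs over both kinds, 1 point for each of 7 sections and a line at the median. Points for ratios of 0 stand at the axis floor. Myh1 (median 0.0999), Myh7b (0.177) and Myh7 (0.793) lie below 1 and Ckm (7.52), Casq1 (4.25) and Myh6 (3.99) above.

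In the E14.5 single-section area a large share of the UMIs of several cardiac forms lay in 1 place. A patch of 48 spots at the right end of the section, 28 of them muscle-rich, held 4.34% of the spots and 0.889% of the UMIs of the area. It was set apart after the data had been seen. There Tnni3 had 315 UMIs, or 2294 CPM (95% Poisson interval 2048 to 2562 CPM), against 50.1 CPM (41.1 to 60.3) in the other muscle-rich spots of the area. This was 51.0% of all Tnni3 UMIs of the area (Wilson interval 47.0 to 54.9%). The intervals cover counting error only.

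Other genes of the ventricle and some of the atrium followed. Myl2 had 881 CPM (731 to 1053) against 27.8 CPM (21.2 to 35.7), Mybpc3 430 CPM (327 to 554) against 8.19 CPM (4.85 to 12.9), and Myh7 5746 CPM (5352 to 6161) against 319 CPM (296 to 344). Myl3, the ventricular essential light chain, had 444 CPM against 19.1 CPM and Tnnt2 2432 CPM against 425 CPM. The atrial Myh6 had 248 CPM against 21.8 CPM and the atrial Myl7 109 CPM against 3.19 CPM. Myl4, also counted among the cardiac forms, did not follow, with 1311 CPM against 1491 CPM and a ratio of 0.879. Several fast genes and the developmental genes did not differ in this way, with ratios of 1.01 for Mylpf, 1.03 for Tnnt3, 0.995 for Atp2a1, 0.8104 for Myh3 and 0.793 for Myh8. The fast form Tnni2 did differ, with 94.7 CPM (50.4 to 162) against 32.3 CPM (25.2 to 40.8), on 13 UMIs in the patch. The shared forms had ratios from 1.25 (Tpm2) to 3.55 (Myom1), with 3.19 for Ckm. Myh1 had 0 UMIs in the patch, with an upper Poisson limit of 26.9 CPM. It had 24.1 CPM (18.1 to 31.5) in the other muscle-rich spots, an interval that includes this limit.

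The lists of cell type markers differed in direction in that patch. The 8 cardiomyocyte genes summed to 663 CPM in it, on 91 UMIs and with 6 of 8 detected, against 62.8 CPM in the other muscle-rich spots and 18.5 CPM in the rest. Tbx20 had 262 against 12.3 CPM, Nppa 175 against 9.56 CPM and Gata4 58.3 against 1.82 CPM, and Nppb and Hand1 had 0 UMIs. The 12 skeletal muscle genes stood at 1136 against 1235 CPM and the 6 cartilage genes at 11492 against 1409 CPM. The smooth muscle list had 313 against 323 CPM and the red blood cell list 3758 against 3023 CPM. The neural, epithelial and bone lists were lower, at 146 against 618, 386 against 972 and 109 against 664 CPM. The stage differences of Tnni3, Myl2, Mybpc3 and Myh7 are therefore given with and without the patch.

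Stage was tested on the summed UMIs of the areas, 2 against 2. With edgeR's quasi-likelihood test and Benjamini-Hochberg adjustment at 0.1, 0 of 15609 genes passed in whole areas, where 930 genes (5.96%) had an unadjusted p under 0.05 and DESeq2 called 37 of 16188 (0.229%). No member passed, the lowest adjusted p being 0.769 by edgeR, and 15 of the 51 tested members had an unadjusted p under 0.05. By DESeq2 3 members passed, Tnni2, Mybpc1 and Ckm, with adjusted p of 0.0153, 0.0619 and 0.0645. In what follows, whole-area levels are CPM after TMM scaling.

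The members were mostly higher at E15.5 in whole areas. Of 51 tested, 42 had a log2 fold change above 0 and 9 below, with a median of 0.58 against -0.00 over all genes. For 30 members the stages did not overlap with E15.5 on the higher side, and for 4 on the lower side, against 20.6% and 19.6% of all genes. The fast forms had 14 of 15 above 0 (median 0.70), the shared forms 6 of 6 (0.75), the non-muscle forms 8 of 9 (0.62), the slow forms 8 of 12 (0.43), both developmental chains (0.83) and the cardiac forms 3 of 6 (-0.15). The muscle share of the tissue moved with this. Muscle-rich spots held 14.8 and 33.9% of the UMIs at E14.5 and 40.0 and 47.6% at E15.5, all 12 skeletal muscle list genes were higher (9 without overlap), and the 5 neural genes were lower (4 without overlap).

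Tnni2 had 8.88 and 9.97 CPM at E14.5 and 24.4 and 24.0 CPM at E15.5, a log2 fold change of 1.36 (SE 0.275), the largest among members. Ckm had 56.0 and 76.7 CPM against 144 and 157 CPM (log2 fold change 1.18, SE 0.241). Mybpc1 had 18.3 and 15.2 CPM against 36.9 and 38.9 CPM (1.18, SE 0.263) and Casq2 56.1 and 51.1 CPM against 97.05 and 126 CPM (1.06, SE 0.236). The stages did not overlap for these 4 genes, whose E14.5 areas were also close to each other. Adjusted p was 0.769 for each in edgeR's quasi-likelihood test with Benjamini-Hochberg adjustment.

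Other members had a wider spread between the E14.5 areas. Myh8 had 139 and 427 CPM at E14.5 and 577 and 611 CPM at E15.5 (log2 fold change 1.07, SE 0.477). Mylpf had 406 and 1156 against 1232 and 1571 CPM (0.84, SE 0.465), and Myh3 405 and 1406 against 1227 and 1522 CPM (0.60, SE 0.519). For Myh3 the stages overlapped, and for all 3 genes the E14.5 single-section area was far below the other 3 areas. Without the E14.5 single-section area the log2 fold changes of Myh8, Mylpf and Myh3 were 0.47, 0.28 and -0.034, and without the E14.5 3-section area 2.096, 1.79 and 1.77. Among the non-muscle forms Myh9 had 83.5 and 110 CPM against 144 and 155 CPM (0.63, SE 0.235), whereas Myh10 had 266 and 268 against 248 and 265 CPM (-0.06, SE 0.237).

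Other genes of the muscle programme lay on the same side in whole areas. Log2 fold changes were above 0 for 11 of 11 sarcomere and Z disc genes (median 0.66), 13 of 16 genes of excitation and calcium release (0.57), 4 of 5 of energy and oxygen supply (0.54) and 12 of 12 myogenic factors (0.72). None of them passed by edgeR, the lowest adjusted p being 0.769.

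Within muscle-rich spots the stage difference of the members was smaller. Here 0 of 14752 genes passed by edgeR, 318 (2.16%) had an unadjusted p under 0.05 and DESeq2 called 7 of 18572 (0.0377%). Of 50 members tested, 0 passed (adjusted p 0.9997 for each), 6 had an unadjusted p under 0.05, and 32 lay above and 18 below 0, with a median log2 fold change of 0.09 against -0.02 over all genes. E15.5 was above E14.5 without overlap in 15 members and below in 6, against 14.8% and 13.9% of all genes. The fast forms had 12 of 15 above 0 (median 0.24), the slow forms 4 of 12 (-0.17), the cardiac forms 1 of 6 (-0.60), the shared forms 5 of 6 (0.22) and the non-muscle forms 8 of 9 (0.27). Of the pathway lists, sarcomere and Z disc had 6 of 11 genes above 0 (median 0.06) and excitation and calcium release 11 of 16 (0.10). Energy and oxygen had 3 of 5 above 0 (0.16) and the myogenic factors 6 of 12 (0.06).

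Tnni2 remained the fast member with the largest fold, at 34.6 and 25.4 CPM against 57.6 and 44.8 CPM (log2 fold change 0.80, SE 0.272). Myl6b, an essential light chain counted here among the non-muscle and smooth muscle forms, had 7.68 and 6.13 against 12.7 and 10.9 CPM (0.82, SE 0.332). By class of spots Myl6b was highest in muscle spots in 4 of 4 areas. Ckm had 228 and 205 against 347 and 301 CPM (0.59, SE 0.238), and Myom1, an M-band protein, 76.8 and 85.5 against 124 and 114 CPM (0.55, SE 0.224). For all 4 both E15.5 areas were above both E14.5 areas. Myh8 had 659 and 1129 against 1379 and 1173 CPM (0.51, SE 0.287), while Myh3 had 1905 and 3659 against 2877 and 2876 CPM (0.05, SE 0.293). Myh7 had 438 and 289 CPM at E14.5 and 265 and 208 CPM at E15.5 (-0.62, SE 0.280). Its E14.5 value in the single-section area includes the patch described above.

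The largest negative folds were those of the cardiac forms Tnni3 and Mybpc3 and of Myl2, counted here among the slow forms, which the patch held at high levels. In muscle-rich spots Tnni3 had 101.98 and 5.62 CPM at E14.5 and 4.41 and 4.05 CPM at E15.5 (log2 fold change -3.57, SE 0.974), Myl2 43.9 and 4.23 against 4.66 and 6.60 CPM (-1.93, SE 0.8102) and Mybpc3 18.8 and 0.682 against 1.97 and 0.912 CPM (-2.48, SE 1.15). In each the E14.5 single-section area was far above the other 3, which stood at or below 6.60 CPM. Without the patch the values were -2.53, -1.26 and -1.07, and that of Myh7 -0.34. In whole areas Myh7 changed sign without the patch, from -0.08 to 0.25. Without the E14.5 single-section area the fold of Tnni3 in muscle-rich spots was -0.41, and those of Myl2 and Mybpc3 turned to 0.41 and 1.05. The fold of Tnni3 was -4.58 without the E14.5 3-section area, -3.66 without the E15.5 single-section area and -3.52 without the E15.5 3-section area. With 1 area left out, the folds of Mybpc3 and Myl2 reached -3.71 and -2.94. Each of these fits leaves 1 area in 1 stage and keeps the E14.5 single-section area, so only the folds are given here.

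**Figure D5:**
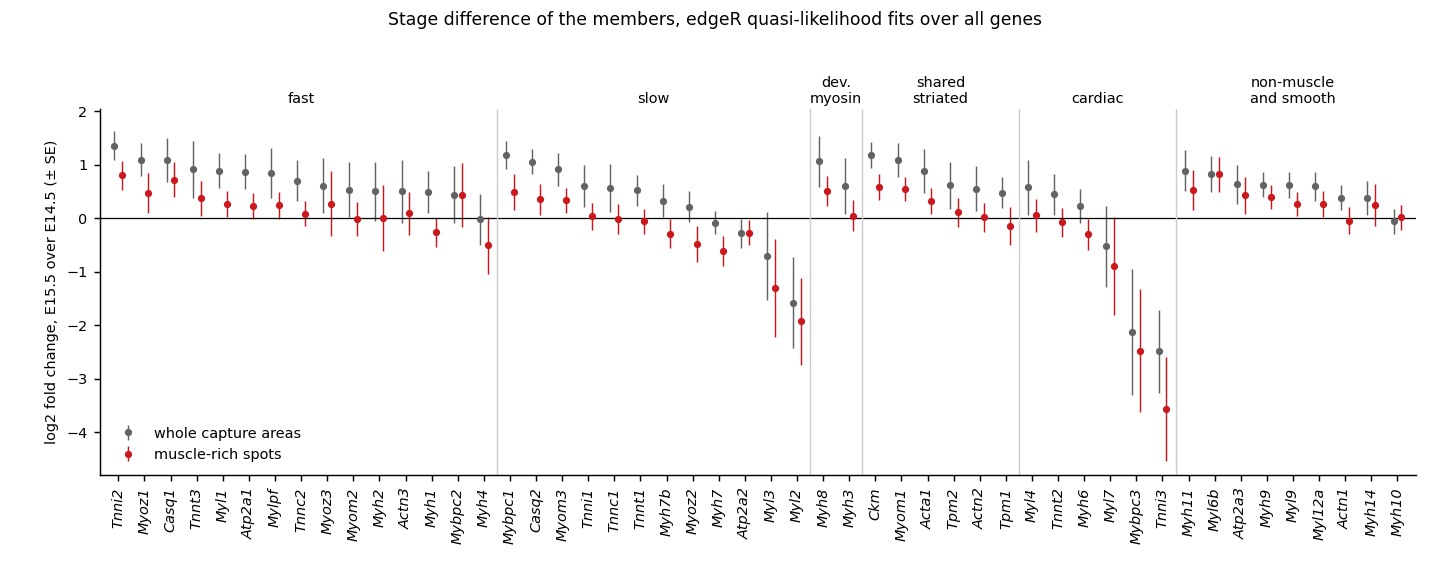
Log2 fold change of E15.5 over E14.5 for the members with its standard error, in whole capture areas (grey) and in muscle-rich spots (red), from edgeR with 2 areas a stage. Most fast, shared and non-muscle forms lie above 0 in whole areas (median of all members 0.58) and nearer to 0 in muscle-rich spots (0.09). Tnni3, Myl2 and Mybpc3 lie below 0 in both, and no member passed the adjusted threshold.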

How the data were processed

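The authors fixed whole heads in formalin, placed paraffin sections on Visium slides and made the deposited tables of UMI counts per gene and spot with Space Ranger 1.3.1 (single-section areas) and 2.0.0 (3-section areas) on mm10, per the labels and the submitters' processing notes; the counts are not normalized. All 4 deposited samples, 2 capture areas per stage, were used. Spots off the tissue (8 and 11 barcodes in the 3-section areas) were left out. Depth ran from 15438992 to 109127953 UMIs per area, which limits genes with few UMIs in the E14.5 single-section area. Genes were matched by symbol, with coordinates from the GENCODE M21 annotation of the same build, and promoters came from RefSeq on GRCm38.p6.

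UMIs were summed over spots per area. Stage was tested with edgeR 4.0.16 (quasi-likelihood test, TMM, filterByExpr) in R 4.3.3 over all genes, adjusted by Benjamini-Hochberg and called under 0.1. DESeq2 1.42.0 was an alternative. The SE given with an edgeR fold is the absolute log2 fold change over the square root of the test's F statistic. On simulated counts made from the whole areas (15609 genes), 22.6, 89.4 and 93.1% of genes changed by 1, 2 and 3 log2 units were called, and 38.7, 85.9 and 100% in muscle-rich spots (14752 genes); 17.2 and 15.0% of the calls were false. Muscle-rich spots had at least 3 UMIs of the 12 list genes (of 13 listed) and a summed level over the Otsu cut. The other classes used cuts of 1060 (neural), 516 (epithelium), 1784 (cartilage) and 533 CPM (bone). Sections were separated by position on the slide. Tables and intervals were computed in Python 3.11.15 with numpy 2.4.6, pandas 2.3.3 and scipy 1.17.1, and plots in matplotlib 3.10.9.

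The members, gene lists and tests were chosen with earlier results of these data known. The rule for named genes took members past the threshold in a stage comparison (there were none), the 3 with the highest mean level in each form, and Myh3, Myh8, Myh7, Myh6, Myl7, Myl2, Tnni3, Tnnt2 and Mybpc3. Other genes named with values were chosen after their values were seen, as were the tissue classes, the muscle patches and the patch at the section end. The alternatives were another tool, scaling, filter, threshold and depth, a replicate block, each area left out, other cuts and a second gene list for muscle-rich spots, and the spots of that patch left out.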

Additional observations from a re-analysis of the deposited data

Results flagged for a closer look

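Of 30 values tested for a sample far from the others of its stage, 7 stood apart by Dixon's test over the 4 sections. Chance marks about 1 in 20 where values are independent, which sections of 1 library and shares of 1 family are not. All 7 belonged to the muscle-rich spots of the E14.5 single section. There Myh3 made up 61.8% of the heavy chain UMIs, Myh7 14.2% (95% Wilson interval 13.4 to 15.04%) and Tnni1 86.9% of the troponin I UMIs (85.5 to 88.2%). Tnni3 stood at 104 CPM, Myl2 at 45.0 CPM, Myl3 at 31.0 CPM and Mybpc3 at 19.2 CPM. Without the patch of 48 spots at the end of that section, Myh7 made up 10.5% of the heavy chains, Myh3 64.6%, Tnni1 91.6% and Tnni3 5.13% of the troponin I UMIs (9.76% with it), so that the Myh7 and Tnni3 shares remained above those of the other 3 E14.5 sections (5.17 to 6.45% and 0.413 to 0.646%). In that section the 23-spot muscle patch beside the 48 spots had 402 CPM of Tnni3 and 1752 CPM of Myh7. The muscle patches that did not touch the 48 spots had 124, 7.58 and 178 CPM of Tnni3 and 339, 424 and 307 CPM of Myh7. The E14.5 sections of the 3-section area share a library, which the 4 values of a stage do not reflect.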

How the results depend on the processing

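In whole areas the count of stage calls was 37 by DESeq2 and 0 to 78 with 1 area left out (78 without the E15.5 single-section area), and 3 members were called by DESeq2 and 0 to 0 with 1 area left out. In muscle-rich spots the calls were 7 by DESeq2, 54 without a filter on low counts, 33 with the replicate number as a block and 1 to 20 with 1 area left out. Members called there were 3 without the filter (Mybpc3, Myl2 and Tnni3) and 1 with the replicate block (Tnni3, log2 fold change -2.49, adjusted p 3.32e-06 by edgeR). In these genes the E14.5 single-section area was far above the other areas, and without it the fold of Tnni3 was -0.41. The block fit of 4 areas has little left to estimate the spread from, so no stage difference is read from that p. In fits with 1 area left out, the lone area of a stage is assumed to vary like the other stage. The deviations of same-numbered areas correlated at 0.246 in whole areas and 0.0205 in muscle-rich spots, and with only 2 numbers they were not taken to pair the samples. Under the block 38 of 38 log2 fold changes of 19 members kept their direction. Each number occurs once per stage, so the block changes the stage contrast little and these directions were close to fixed in advance. Other directions turned as follows. Myh7 went to 0.25 in whole areas without the section-end patch (an alternative added after the data were seen), and Myh3 to -0.0288 in muscle-rich spots with the cut doubled. With 1 area left out, the whole-area ranges were -0.0336 to 1.77 for Myh3, -2.46 to 0.68 for Myl2, -3.16 to 1.52 for Mybpc3, -0.145 to -0.0143 for Myh7, 0.28 to 1.79 for Mylpf and 0.47 to 2.096 for Myh8. In muscle-rich spots they were -0.35 to 0.61 for Myh3, -2.94 to 0.41 for Myl2, -3.71 to 1.05 for Mybpc3, -0.0427 to 0.62 for Mylpf and -0.00654 to 0.96 for Myoz1. Where the direction turned, the area left out was the E14.5 single-section area, except for Myoz1, where it was the E15.5 single-section area. Of 228 log2 fold changes of the named members under alternatives in whole areas 4 turned, and of 284 in muscle-rich spots 6; the causes were not tested. The share of member UMIs in muscle-rich spots was 76.0%, and 82.7% with the cut halved, 65.4% with it doubled and 79.2% with the second list. For the non-muscle forms it was 41.2%, 55.3% and 27.3% in that order, and for the developmental chains 85.7%, falling to 75.1% with the cut doubled. Across patches cut at 2 or 3 times the level, the median ratios were 0.121 and 0.0784 for Myh1, 6.78 and 6.10 for Ckm, and 0.816 and 0.716 for Myh7, which was lower in 6 of 7 sections at the lower cut. With 2 areas a stage, folds under about 2 log2 units could be missed often, and genes with few UMIs in the E14.5 single-section area are limited by its depth.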
